A study of Caenorhabditis elegans with 2 samples.

Results

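The regions described here are the peaks of the chromodomain protein CEC-7 on chromosome IV of Caenorhabditis elegans. They were taken as every row of the deposited peak list placed on chromosome IV, which gave 793 of 4116 peaks. The list came from 1 chromatin immunoprecipitation sequencing (ChIP-seq) library of hermaphrodites of the strain fem-2(b245), genotype fem-2(b245)III, kept at 20 °C. The stage is given as young adult with germ line in one label and as gravid adult in the growth protocol, and whole worms were ground, so soma, germ line and any embryos in the adults contributed chromatin. The antibody was a rabbit polyclonal, affinity purified, against CEC-7, the product of Y37D8A.11. An input library from the same strain and stage was also made, and no values of it were used here. No replicate, and no strain with the wild-type fem-2 allele or without CEC-7, was analysed here, so no comparison below could be tested against the spread between samples.

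Chromodomains are small folds that in several chromatin proteins bind methylated lysines of histone tails, and CEC-7 belongs to the C. elegans group named after this domain. FEM-2 is a protein phosphatase of the sex determination pathway that promotes male fates. Autosomes of C. elegans have a gene-dense centre with little recombination and arms with more repeats, more recombination and more histone H3 lysine 9 methylation. Chromosome IV also carries most of the genes for 21U-RNAs, the piRNAs that guide the Argonaute PRG-1 in the germ line, in broad domains in its left-central part and on its right arm. No sequence is printed, because no genome of the build of the list, WS220, was used here.

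The CEC-7 peaks of chromosome IV had 3 arrangements from left to right. The left arm, taken as 0 to 4 Mb, held many narrow peaks in long runs. The centre, taken as 4 to 13 Mb, held fewer peaks per Mb as a whole, but these were broader and scored higher. Density there was uneven, with 29.6 per Mb at 4.5 to 7 Mb and 65 per Mb at 11 to 13 Mb. From 13500 kb to 17000 kb on the right arm the peaks were few, narrow and separated by long stretches without a peak. Density was 64.8 peaks per Mb on the left arm, 44.9 per Mb in the centre and 29.1 per Mb on the right arm, taken as 13 Mb to the end of the last peak. Coverage, meaning the percent of bases that peaks occupied, was 14.3% on the left arm, 14.6% in the centre and 7.04% on the right arm. The left arm thus had more peaks per Mb than the centre at nearly equal coverage. These arm borders are approximate borders of the recombination domains, in whole Mb.

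**Figure D1:**
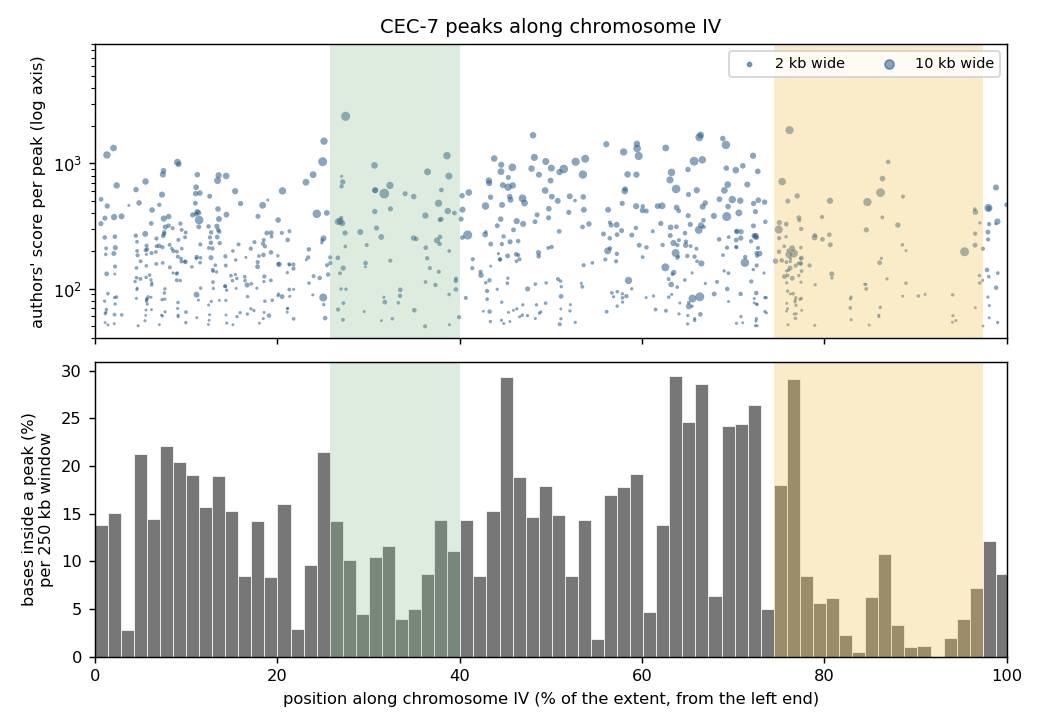
CEC-7 peaks along chromosome IV, by position in percent of the extent. The upper panel gives the authors' score of each of the 793 peaks on a log axis, with the area of a point in proportion to peak width, and the lower panel the percent of bases inside a peak in windows of 250 kb. The right-hand shading marks 13 to 17 Mb, where the first windows are high (up to 29.2%) and most of the others low, and the left-hand shading marks 4.5 to 7 Mb, where the coverage was 9.43% as a whole.

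Chromosome IV as a whole ranked 4 among the 5 autosomes in density, coverage, median width and median score. Its peaks covered 2.20 Mb, or 12.6% of an extent of 17.5 Mb, against 15.9% for the other 4 autosomes combined. Their density was 45.4 per Mb, against 50.5 per Mb. The median width was 2177 bp (quartiles 1474 and 3438 bp), and the other autosomes together had 2342.5 bp (1546 and 4028 bp). The authors' score, whose unit is not stated and which serves only to rank peaks within the list, had a median of 181 (quartiles 92.2 and 343) on IV and 202 (100.5 and 450) on the others. Chromosome V was lower than IV in all 4 measures, with 26.4 peaks per Mb and 6.87% coverage, and with medians of 2002 bp for width and 145 for score. Chromosome IV thus lay between V and the group of I, II and III.

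The upper end of the width distribution was shorter on chromosome IV than on I, II and III. Of its 793 peaks, 88 (11.1%) were wider than 5 kb, compared with 17.5% on I, 15.9% on II, 20.3% on III and 8.55% on V. Peaks wider than 10 kb numbered 3 on IV and 2 on V, whereas I had 21, II had 16 and III had 23. Peaks over 5 kb supplied 27.7% of the covered bases of IV and 38.4% of those of the other autosomes. At the lower end the chromosomes were alike. The narrowest peak measured 982 bp on IV and between 967 and 994 bp on the other autosomes, and 3 peaks of IV were under 1 kb. The lowest score was 50 on IV and between 50.09 and 50.61 on the other autosomes. Whether a cutoff of the peak calling set these minima was not tested. A score of 1000 or more was given to 28 peaks of IV (3.53%) and to 6.92% of the peaks of the other autosomes. Wider peaks scored higher on IV, with a Spearman correlation of 0.80 across its 793 peaks, against 0.83 across the 3282 peaks of the others. Peaks of 1 library share its depth and background, so these coefficients describe the list only.

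The broad and high-scoring peaks of chromosome IV lay mostly in its centre. Of the 88 peaks over 5 kb, 69 lay between 4 and 13 Mb, 10 on the left arm, 8 between 13 and 17 Mb and 1 beyond. The centre held 50.9% of all peaks of IV. Peaks over 5 kb made up 17.1% of the peaks in the centre, 3.86% on the left arm and 7.21% between 13 and 17 Mb. The median width was 2593 bp in the centre (quartiles 1721 and 4214 bp, 404 peaks) and 1804 bp on the left arm (1387.5 and 2571.5 bp, 259 peaks). The median score was 222 in the centre and 160 on the left arm. Of the 28 peaks with a score of 1000 or more, 23 were central and 3 were on the left arm. The centre of IV was not the best covered of the list. Its 14.6% compared with 27.0% in the centre of I, 20.2% in that of II, 27.6% in that of III and 7.92% in that of V. In I, II, III and V the centre had more coverage than either arm. The same order held on IV, where the centre and the left arm differed by 0.297 percentage points.

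The highest-scoring peak of IV lay at IV, 4799661 to 4809788, measured 10.1 kb and had a score of 2379, which placed it ninth in the whole list. It was also number 3 by width of the chromosome. A stretch of 272 kb without a peak (4811805 to 5084045), number 3 by length on IV, began 2.02 kb to its right. The second highest score, 1846, belonged to a peak of 8.22 kb at 13297700 to 13305914, on the left edge of the right arm. The third (11595867 to 11601479, 5.61 kb, score 1689) and the fifth (11571131 to 11579005, 7.88 kb, score 1618) lay 16.9 kb apart. The fourth (8388555 to 8393730, 5.18 kb, score 1680) had no other peak within 20 kb on either side. The remaining 5 of the first 10 began at 12021957, 4386984, 10376131, 9791945 and 12079243, with scores from 1583 down to 1407. Of these first 10 peaks, 9 were in the centre, which held 50.9% of all peaks of IV. Another 1 lay between 13 and 17 Mb and 0 were on the left arm. The first 10 peaks were 3.72 to 10.1 kb wide.

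Scores varied widely among the 5 widest peaks. The widest of IV, 11.7 kb at 5537839 to 5549548, had a score of 574 and was 93rd by score on the chromosome. The second, 10.1 kb at 7134506 to 7144644, scored 268. The third, 10.1 kb wide, was the peak with the highest score of the chromosome, 2379, given above. The fourth, 9.90 kb at 12094048 to 12103945, scored 377. The fifth, 9.88 kb at 16646747 to 16656622, scored 197, near the median of the list (196). It stood alone in the sparse stretch, with 160 kb to the nearest peak on its left and 188 kb to the nearest on its right.

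Peaks on chromosome IV occurred in runs. The distance between neighbours, from edge to edge, had a median of 2555.5 bp (quartiles 557 bp and 19.5 kb) and a range of 1 bp to 521 kb. Of the 792 distances, 259 (32.7%) were at most 1 kb, and 37 exceeded 100 kb. The latter added up to 6.18 Mb of sequence without a peak. Of the peaks, 658 (83.0%) had a neighbour within 5 kb. This share was 84.9% on I and on II, 87.9% on III and 70% on V. Chained by distances of at most 5 kb, the 793 peaks formed 316 groups, of which 135 were single peaks, 141 had 2 to 4 peaks, 32 had 5 to 9 and 8 had 10 or more. The 8 longest runs held 11.5% of the peaks of IV. The corresponding share was 6.07% on I, 5.58% on II, 12.4% on III and 0% on V.

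The longest runs lay mostly on the left arm. Of the 8 runs with 10 or more peaks, 6 lay in the first 4 Mb and together held 70 peaks, 1 lay in the centre and 1 between 13 and 17 Mb. The first 4 Mb held 32.7% of all peaks of IV. The largest run, with 15 peaks, spanned 45.5 kb at 962923 to 1008456, and 64.1% of that span lay inside a peak. Runs of 12 peaks followed at 1288238 to 1336468 and at 1569135 to 1610601, and a run of 11 at 360311 to 397447. The fifth, with 11 peaks in 25.5 kb at 12658086 to 12683627, lay near the right border of the centre. Its peaks had a median score of 92.2, the lowest of the 8 runs, and 6 of the 8 had a median under the 181 of the chromosome. Peaks without a neighbour within 5 kb made up 19.3% of the peaks in the centre and 12.7% on the left arm, and the median distance was 2971 bp against 2042 bp.

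The first peak of IV began at 119257 and ended at 122494 (3238 bp, score 330), so the first 119 kb held no peak, and the first 250 kb held 14 peaks. The last peak, which by definition ends the extent used here, spanned 17457756 to 17460832 (3077 bp, score 468) and was preceded by 170 kb without a peak. Beyond 17 Mb there were 19 peaks with a coverage of 10.6% over 0.46 Mb, above the 6.63% of the 4 Mb before.

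Between 13 and 17 Mb chromosome IV held 111 peaks, 13.998% of its peaks on 22.9% of its extent. This stretch was known to be low before it was delimited, so its values describe it and are no test. Density was 27.8 per Mb, against 50.7 per Mb over the rest of IV, and the rest thus had 1.83 times as many peaks per Mb. Coverage was 6.63% against 14.4%, a ratio of 2.17. The median width was 1650 bp (quartiles 1277.5 and 2822.5 bp) against 2243 bp (1554.5 and 3616 bp), and the quartile ranges overlapped over most of their length. The median score was 153 against 190. Of the 111 peaks, 36.0% reached the median score of the whole list, against 48.8% of the peaks over the rest of IV.

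The stretch was not evenly sparse. Its first 0.5 Mb, from 13000 to 13500 kb, held 46 of the 111 peaks, at 92 per Mb and 23.6% coverage. The region from 11 to 13 Mb was also dense as a whole (65 per Mb, 21.2%). A distance of 173 kb without a peak, from 12858500 to 13031743, lay at the border between them. The window from 12.75 to 13 Mb had 7 peaks and 5.05% coverage. The remaining 3.5 Mb held 65 peaks, at 18.6 per Mb and 4.21% coverage. From 14 to 17 Mb, a border chosen after seeing the data, there were 47 peaks, at 15.7 per Mb and 3.74%. By windows of 1 Mb the counts were 64, 15, 18 and 14 peaks, and coverage was 15.3%, 3.83%, 4.10% and 3.28%. The step thus lay within the window from 13 to 14 Mb. Of the 16 windows of 250 kb in the stretch, 8 had under 5% coverage and 1, from 16 to 16.25 Mb, had no peak. Over the rest of IV, 6 of 53 full windows had under 5% and each held more than 1 peak.

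**Figure D2:**
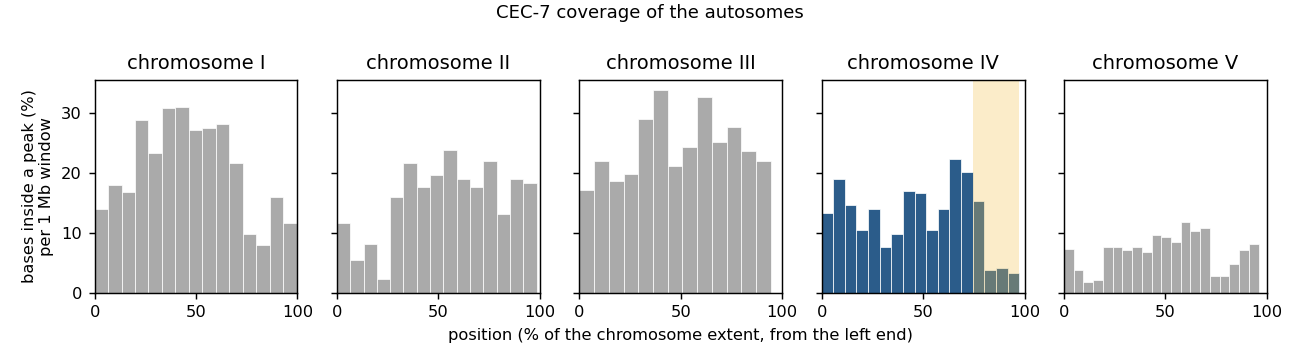
Percent of bases inside a CEC-7 peak in full windows of 1 Mb along each of the 5 autosomes, by position in percent of the extent, with chromosome IV in blue and 13 to 17 Mb shaded. On IV the highest window reached 22.3% and the last 3 full windows lay between 3.28% and 4.10%; on III no window was under 17.1%, and on V none exceeded 11.7%.

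Long stretches without a peak filled most of the interval. Distances over 100 kb lying wholly between 13 and 17 Mb numbered 12 and summed to 2.62 Mb, or 65.4% of it. Of the 5 longest distances on IV, 4 were there. They spanned 521 kb (15896625 to 16417970), 351 kb (14112977 to 14463810), 259 kb (14481390 to 14740169) and 235 kb (15531244 to 15766017). Of the 10 longest on the chromosome, 7 were there.

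The peaks that remained were still grouped. Of the 111 peaks, 80.2% had a neighbour within 5 kb, against 83.4% over the rest of IV. This share was 91.3% from 13000 to 13500 kb and 72.3% from there to 17 Mb. The 3 runs with the most peaks were all in the dense edge or at its end. They had 10 peaks (13510051 to 13534941), 8 peaks (13261531 to 13288979) and 7 peaks (13405908 to 13428562). The third was tied with another run of 7 peaks in the dense edge, at 13233933 to 13248877. Further right, the run with the most peaks had 5, at 16844995 to 16861251, near the right border of the stretch, with a median score of 275.

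A few peaks inside the sparse part ranked high. The peak at 15188060 to 15190647 was 2.59 kb wide, had a score of 1029 and was 27th of the 793 by score, and a stretch of 183 kb without a peak followed on its right. At 15078393 to 15082364 a peak of 3.97 kb scored 757, and at 15038298 to 15047744 a peak of 9.45 kb scored 584. These 3 lay in the window from 15 to 15.25 Mb, which had 10 peaks and 10.8% coverage. The other peaks among the first 5 by score were in the dense edge, at 13297700 to 13305914 (score 1846) and at 13156940 to 13164026 (score 715). The stretch also held a peak of 8.41 kb at 14787797 to 14796206, with a score of 491, which was number 3 in width there.

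At equal width, median scores in the stretch, its dense edge included, were close to those elsewhere for narrow peaks and lower for broad ones. Peaks under 1.5 kb had a median score of 83.1 between 13 and 17 Mb (44 peaks) and 74.8 over the rest of IV (162 peaks). From 1.5 to 2.5 kb the medians were 163 (33 peaks) and 164 (230 peaks). From 2.5 to 4 kb they were 248 (23 peaks) and 311 (152 peaks). At 4 kb or more they were 297 (quartiles 204 and 544, 11 peaks) and 601 (379 and 856, 138 peaks). The lower median score of the stretch went together with its share of peaks under 1.5 kb, which was 39.6% against 23.8% over the rest of IV. The class of the broadest peaks rests on 11 peaks, and its quartile range overlaps that of the rest of IV. Those in the dense edge scored 187, 191, 210, 297, 715 and 1846, and those further right 197, 256, 491, 503 and 584. The median of 297 was thus the score of a peak in the dense edge and does not describe the sparse part alone.

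**Figure D3:**
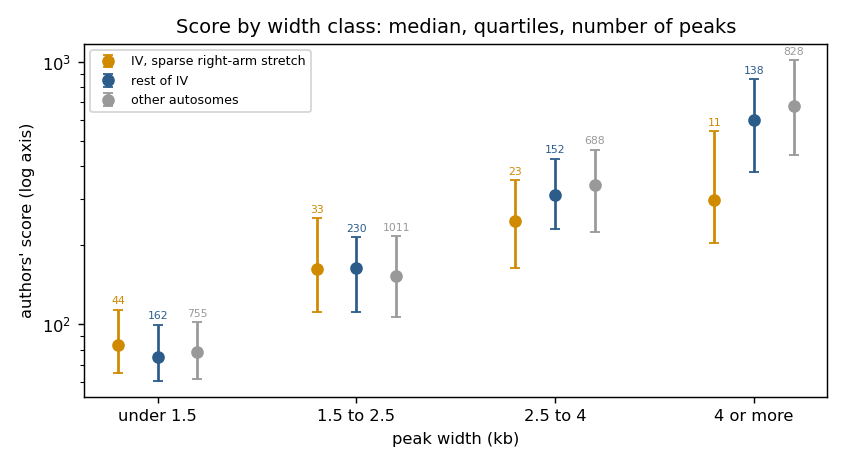
Median authors' score (points) with quartiles (bars) on a log axis for 4 classes of peak width, in the sparse stretch of IV from 13 to 17 Mb, the rest of IV and the other 4 autosomes; small numerals give the number of peaks. The 3 groups lie together below 2.5 kb, and at 4 kb or more the stretch, its dense edge included, has a median of 297 against 601 and 678.

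Sparse stretches of this length were present on other autosomes as well. Among the 65 stretches of 4 Mb that begin at a whole Mb on the 5 autosomes, 7 had lower coverage than IV from 13 to 17 Mb, and all 7 were on chromosome V. Among the 48 on I to IV, 0 had lower coverage and 2 had lower density. The least covered stretch of II was 0 to 4 Mb, with 6.90% and 25.8 peaks per Mb, close to the 6.63% and 27.8 per Mb of IV. That of V was 0 to 4 Mb with 3.76%, that of I was 11 to 15 Mb with 11.3%, and that of III was 0 to 4 Mb with 19.4%. In chromosomes I to V the least covered stretch thus touched an arm, on the left in II, III and V and on the right in I and IV. Stretches that begin 1 Mb apart share most of their bases, and IV from 13 to 17 Mb was chosen for its low value, so the order is a description.

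Compared by approximate right arms, coverage was 7.04% on IV, 12.3% on I, 17.01% on II, 23.5% on III and 6.74% on V. Density was 29.1 per Mb on IV, 51.3 on I, 72.5 on II, 85.5 on III and 30.7 on V. The right arm of IV was therefore close to that of V in both measures, while I, II and III were higher. For left arms the order differed, with 14.3% coverage on IV, 19.3% on I, 8.70% on II, 19.4% on III and 5.04% on V. The median width on the right arm was alike among 4 chromosomes, at 1728.5 bp on IV, 1754 bp on I, 1730 bp on II and 1833.5 bp on V, and was 2066 bp on III. Narrow peaks on the right arm were thus common to chromosomes of high and low density.

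The intervals that hold the dense 21U-RNA domains, taken as 4.5 to 7 Mb and 13500 to 17000 kb, were both lower in peaks than the rest of chromosome IV. Their borders are approximate and come from general knowledge of the chromosome, and no annotation of 21U-RNA genes was used. The interval from 13500 to 17000 kb lies inside the sparse right-arm stretch, known to be low before it was delimited. It also leaves out the dense first 0.5 Mb of that stretch. Its low values were therefore set by the choice of the stretch and are no test of a match with 21U-RNA domains. From 4.5 to 7 Mb there were 74 peaks, at 29.6 per Mb and 9.43% coverage. From 13500 to 17000 kb there were 65, at 18.6 per Mb and 4.21%. Outside both there were 654 peaks, at 57.1 per Mb and 15.9% coverage. The other autosomes taken whole, with their own sparse stretches kept, had 20.98% on I, 15.7% on II, 24.1% on III and 6.87% on V. These sets are unlike, so the values do not rank IV without the intervals among the autosomes. Among the 2.5 Mb stretches of IV that begin every 0.5 Mb, 5 had lower coverage than 4.5 to 7 Mb. Of these, 4 began between 13 and 14.5 Mb, and the fifth, 5 to 7.5 Mb with 9.26%, overlapped 4.5 to 7 Mb. Those 4 lie inside the sparse right-arm stretch, which was chosen for its low value, so the order is a description. Whether 21U-RNA genes play a part in these values was not tested.

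The peaks of the 2 intervals differed in kind. From 4.5 to 7 Mb the median width was 2635.5 bp (quartiles 2081 and 3784 bp) and the median score 220, both close to the centre as a whole (2593 bp and 222). From 13500 to 17000 kb they were 1600 bp (1262 and 2728 bp) and 138. Peaks over 5 kb made up 14.9% of the former and 4.62% of the latter. Distances over 100 kb numbered 8 in the former, with a sum of 1.20 Mb, and 12 in the latter, with a sum of 2.62 Mb. The intervals are of unequal length, 2.5 Mb and 3.5 Mb, so these counts and sums are not directly comparable. Fewer peaks therefore went with narrow peaks on the right arm and with peaks of the usual central width near 5 Mb.

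**Figure D4:**
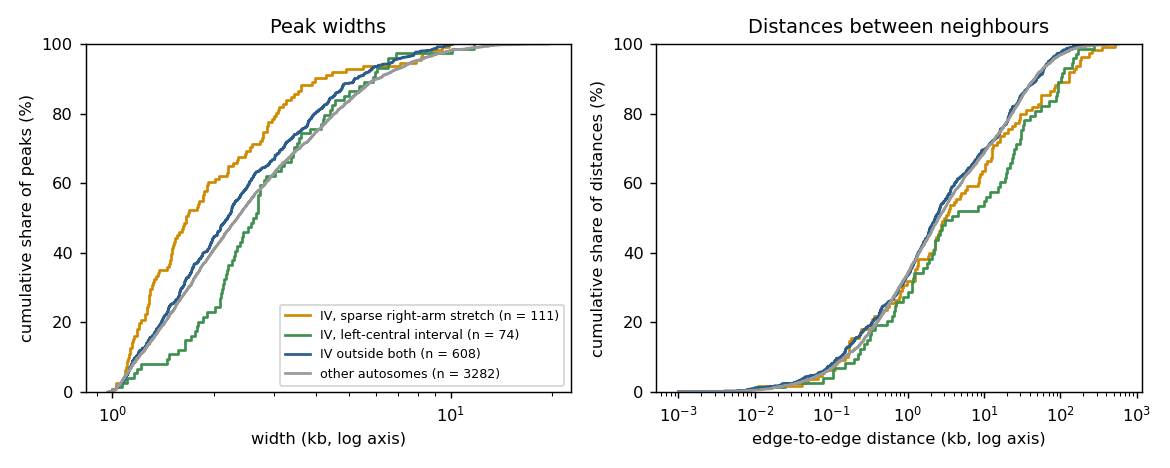
Cumulative share of peaks by width (left) and of distances between neighbouring peaks (right), both on log axes, for the sparse right-arm stretch of IV from 13 to 17 Mb, the left-central interval of IV from 4.5 to 7 Mb, the 608 peaks of IV outside both and the 3282 peaks of the other autosomes. The right-arm stretch has the lowest median width (1650 bp) and the left-central interval the highest (2635.5 bp), and both have more long distances than the rest of IV. The upper quartile of width is higher in the other autosomes (4028 bp) than in the left-central interval (3784 bp).

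Single windows of 1 Mb give the range along the chromosome. The most covered were 11 to 12 Mb with 22.3% and 63 peaks, 12 to 13 Mb with 20.1% and 67 peaks, and 1 to 2 Mb with 19.0% and 84 peaks. The last of these had the most peaks of any window on IV, with a median width of 1923.5 bp, against 2662 bp from 11 to 12 Mb. The least covered were 16 to 17 Mb with 3.28% and 14 peaks, 14 to 15 Mb with 3.83% and 15 peaks, and 15 to 16 Mb with 4.10% and 18 peaks. Among the 80 full windows of the autosomes, 10 had under 5% coverage, of which 6 were on V, 3 on IV and 1 on II. Of the 23 with over 20%, 2 were on IV. The median of the peak midpoints lay at 7.90 Mb, left of the middle of the extent. When the extent was cut into 3 equal segments, the left one held 40.4% of the peaks, the central one 33.7% and the right one 26.0%. By covered bases the order changed, with 40.003% in the central, 35.4% in the left and 24.6% in the right segment. The central segment also led by number among the peaks at or above the median score of the list, with 38.9% against 36.5% in the left segment.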

How the data were processed

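ChIP-seq peaks of CEC-7 from 1 library were analysed. Reads were aligned with BWA to ce10, per the submitters' processing notes, and peaks were called with MACS on WS220, per the file headers. Not given in the sources used here were versions, duplicate treatment, filters and whether the input was the control. Each deposited row held a 1-based start, an end and a score. The score is the value that the authors' caller wrote, with no stated unit, and it served only to describe and rank peaks. The list holds no read counts, so depth is unknown and no interval that needs it is given. The extent of a chromosome was taken as the end of its last peak. Peaks were placed by midpoint, and covered bases were split exactly at window borders. The peaks named are the first and last, the 10 highest by score, the 5 widest, the 5 longest distances and the 5 longest runs of IV, with 5, 3, 3 and 3 between 13 and 17 Mb. The regions, lists and borders were chosen with earlier results of these data known. Arm borders (centre 4 to 11 Mb on I, 5 to 12 on II, 4 to 10 on III, 4 to 13 on IV, 6 to 17 on V) were entered from general knowledge. The functions were tested on simulated lists. With 1 library no test was run and no p-value computed. Gene annotation and sequence of the build were not used here. Values were computed in Python 3.11.15 with pandas 2.3.3, numpy 2.4.6 and scipy 1.17.1, and figures with matplotlib 3.10.9.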

Additional observations from a re-analysis of the deposited data

How the results depend on the processing

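Of 63 alternative values, 38 stayed within 1.5 times the value as deposited or, for shares of peaks, inside its exact 95% binomial interval. Another 25 moved beyond that, and 0 ratios crossed 1. Chromosome IV kept rank 4 among the 5 autosomes in coverage under the 3 alternatives run. The binomial interval treats peaks as independent, whereas most peaks of this 1 library had a close neighbour. It served only to sort the settings and gives no spread between samples. Keeping peaks with a score at or above the median of the list, which removes peaks by construction, left 373 peaks on IV, at 21.4 per Mb and 8.21% coverage, with a median width of 3378 bp, a median score of 360, a median distance of 14423.5 bp, 58.4% with a neighbour within 5 kb, 36.5% in the left and 38.9% in the central of the 3 segments, so that the order of these segments turned, and from 13 to 17 Mb 10 per Mb and 3.56% coverage. Merging peaks within 1000 bp gave a median width of 3289.5 bp, a median distance of 9230 bp and 64.2% with a neighbour. A neighbour within 2 kb was found for 69.1% and within 10 kb for 88.3%. By covered bases the order turned likewise, with 35.4% in the left segment and 40.003% in the central one. The borders of the sparse stretch set its depth. From 13500 to 17000 kb coverage was 4.21%, with ratios to the rest of IV of 0.36 for density and 0.29 for coverage, and from 14 to 17 Mb, added after seeing the data, density was 15.7 per Mb, coverage 3.74% and the ratios 0.30 and 0.26, because the dense first part was left out. Over all settings run the stretch stayed below the rest of IV, with ratios of 0.30 to 0.64 for density, 0.26 to 0.53 for coverage and 0.64 to 0.83 for median width. All of them kept the low part from 14 to 17 Mb inside the stretch. The direction for density and coverage was thus largely set by the choice of the stretch and is no test. The alternative planned for gene starts was not run, for want of an annotation of the build. No paired analysis was possible because only 1 library of the ChIP was analysed. Occupancy below the authors' cutoff, in the stretches without peaks or elsewhere, was not detectable.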
